A study of Homo sapiens with 6 samples.

Results

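The 40 genes described here encode the machinery that carries proteins into mitochondria and folds or degrades them there. They are the subunits of the TOM and TIM translocases, the sorting machinery of the outer membrane, the import motor, the matrix chaperones HSPD1 and HSPE1, and the proteases that trim or remove imported proteins. The genes were picked by function and matched to probe sets by annotated gene symbol, and the list was chosen on results known from the mimic-minus-control differences of these same 6 arrays. The differences below are therefore a description, and no p-value is given for them. The rule matched 80 of the 54613 probe sets tested. Of the 40 genes, 38 had a probe set annotated to that gene alone, among 19775 such genes on the array, and each was read at its probe set with the highest mean over the 6 arrays.

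Most mitochondrial proteins are encoded in the nucleus, made in the cytosol and imported unfolded. Precursors pass the TOM complex in the outer membrane. From there the TIM23 complex and its ATP-driven motor take those with a cleavable presequence to the matrix, the small TIM chaperones escort carrier proteins to the TIM22 complex, and the CHCHD4 and GFER relay traps small cysteine-rich proteins in the intermembrane space. In the matrix, presequences are cut off, HSPD1 and HSPE1 fold the products, and LONP1 and the CLPX-CLPP protease degrade those that fail.

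The cells were MCF10A, a non-tumorigenic human mammary epithelial line, and they had been transfected with miR-221 plus miR-222 (as mimics, 3 arrays) or with a control microRNA, miR-control (3 arrays). Each array held total RNA of a separate biological replicate, per the labels, and its values are log2 intensities. The labels used here name no dose or time, and levels are those of 1 cell line. All 8 measured markers of mammary epithelium lay above the array median on every array, and all 8 were called lower in mimic cells (summed level from 88.35 to 89.36 in mimic arrays and from 98.05 to 98.58 in control arrays). KRT17, KRT6A and TP63 were not analysed here. The array medians ran from 7.59 to 7.66. On every array, COL3A1, LUM and PDGFRB of the 7 fibroblast markers lay below the median, and COL1A1, COL1A2, DCN and FAP above it. The summed level of the 7 was 58.68 to 59.21 in mimic arrays and 59.86 to 59.90 in control arrays. The members went both ways: DCN was called higher (1.66), FAP (-1.60) and LUM (-1.06) were called lower, and the other 4 were not called. Among the 5 endothelial markers, CDH5 lay below the median on every array, and PECAM1, KDR, VWF and TEK lay above it. The sums were 39.53 to 40.25 in mimic and 40.95 to 41.23 in control arrays. KDR alone was called (-1.48), and the other 4 differed by 0.02 to 0.14. Among the 5 blood cell markers, PTPRC lay below the median on every array, CD3E, CD14 and HBB lay above it, and ITGAM did neither. The sums were 41.42 to 41.68 in mimic and 42.15 to 42.31 in control arrays. There CD14 was called lower (mean 8.80 in mimic and 9.96 in control arrays), ITGAM was called higher (0.21), and the median difference of the list was 0.09. Among the 4 luminal markers, PGR lay below the median on every array, ESR1 and GATA3 lay above it, and FOXA1 did neither. The sums were 34.35 to 34.53 in mimic and 35.01 to 35.36 in control arrays. GATA3 (-0.48) and FOXA1 (-0.44) were called lower there, and ESR1 and PGR were not called. Lying above the median was thus not particular to the markers of mammary epithelium. The part of these markers in the results below was not tested. The 3' minus 5' signal of GAPDH, a measure of RNA integrity, was 0.02 to 0.04 in mimic arrays and -0.05 to 0.02 in control arrays on the log2 scale. That of ACTB was 0.33 to 0.39 in mimic arrays and 0.29 to 0.36 in control arrays. In RNA of whole cultures, a change in the share of some cells and a change of RNA per cell cannot be told apart.

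The 3p strands, the usual mature forms of these microRNAs, are shown because the treatment is named for them; the sequence of the mimic itself was not used here. Capitals mark the seed, bases 2 to 8, which is the same in both; the sequences are those of RefSeq (GRCh38.p14, both from the minus strand of chromosome X, chrX:45746180-45746202 for miR-221-3p and chrX:45747036-45747056 for miR-222-3p).
hsa-miR-221-3p: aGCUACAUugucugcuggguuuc
hsa-miR-222-3p: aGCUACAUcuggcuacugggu

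The import genes were lower in mimic cells more often than higher. By limma with Benjamini-Hochberg adjustment over all probe sets and a threshold of 0.05, 18 of the 38 genes were called lower (47.4%) and 3 were called higher (7.89%), which below is written as fell and rose. Over all genes, 16.3% were called lower and 14.1% higher. Nothing is read from the distance between these shares, because the genes were proposed with the comparison known. The median difference of the 38 genes was -0.17 on the log2 scale, with a range from -0.83 to 0.34, and the median of all genes was 0.03. The changes were small: the largest fall was 1.77-fold and the largest rise 1.26-fold. For 23 genes (60.5%) all mimic arrays lay below all control arrays, and for 4 (10.5%) all lay above. Over all genes these shares were 21.9% and 23.7%. Relative to each gene's own mean, the median of the 38 genes was -0.177, -0.044 and -0.106 in mimic replicates 1 to 3, and 0.090, 0.132 and 0.096 in control replicates 1 to 3. Mimic replicate 1 was the lowest array, and the arrays of the groups did not overlap in this summary.

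**Figure D1:**
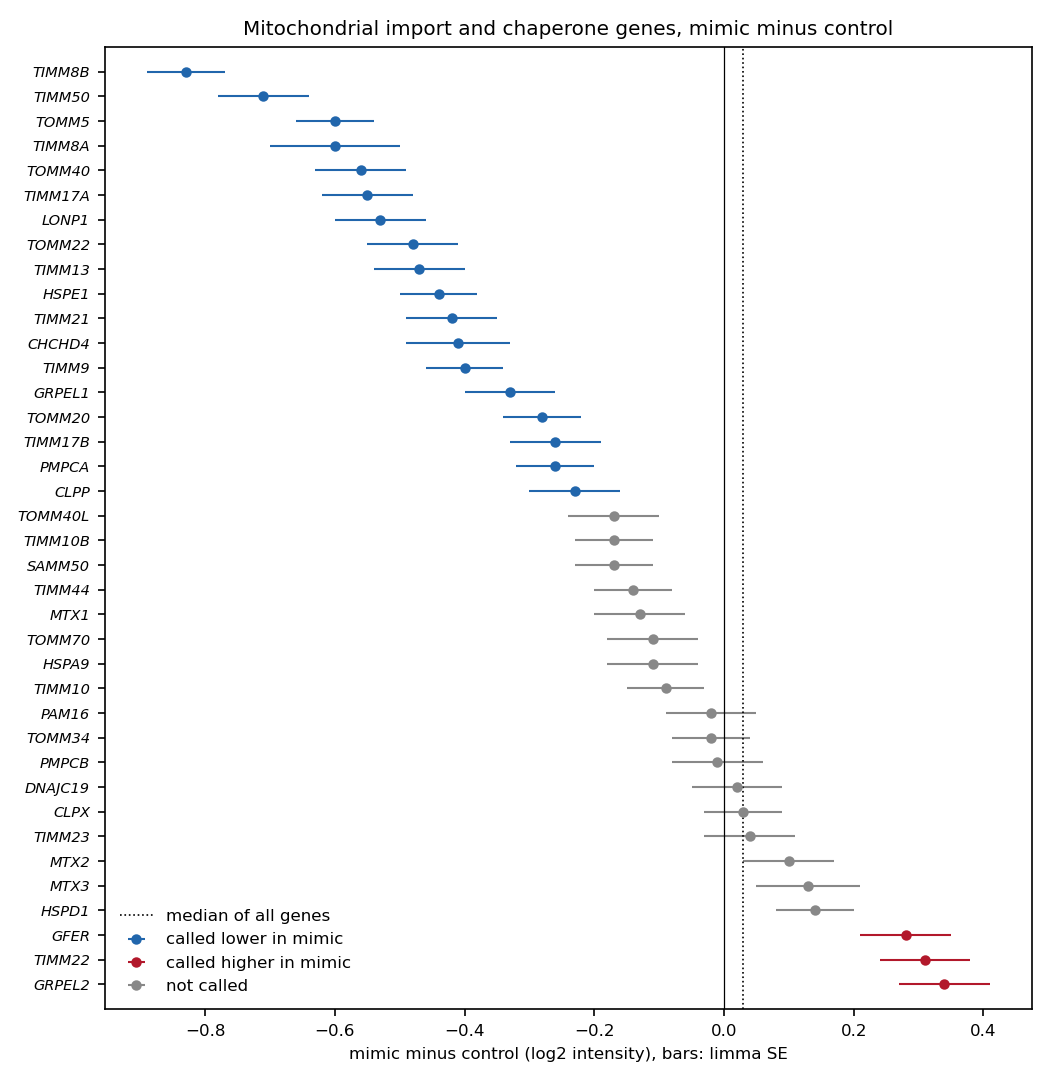
Difference in log2 intensity (x axis, mimic minus control) of each of the 38 genes (y axis), with limma's standard error as bars. The genes run from TIMM8B at -0.83 to GRPEL2 at 0.34; 18 were called lower (blue), 3 higher (red) and 17 not called (grey), and the dotted line is the median of all genes, 0.03.

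At the outer membrane, 4 of the 7 measured TOM genes fell (TOMM40, TOMM5, TOMM22 and TOMM20), 0 rose and the median difference was -0.28. Beside this count and those of the other roles below stand the shares over all genes, 16.3% called lower and 14.1% called higher. TOMM40, the pore of the complex (19:44891254-44903689, GRCh38.p14, its only probe set of 1 gene), had values of 8.92, 8.82 and 8.82 in mimic arrays and 9.38, 9.53 and 9.33 in control arrays. All mimic arrays were below all control arrays, and the difference was -0.56 ± 0.07 (limma SE), or 1.47-fold. TOMM5, a small subunit that helps to assemble the pore, had 10.99, 11.16 and 11.07 in mimic arrays and 11.68, 11.67 and 11.66 in control arrays. The difference was -0.60 ± 0.06 (SE), the control arrays lay within 0.02 of each other, and the second TOMM5 probe set gave -0.70. TOMM22, the central receptor, fell by 0.48, and its other probe sets fell by 0.26 and 0.80.

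TOMM20, the receptor for presequences, had 12.73, 12.85 and 12.84 in mimic arrays and 13.11, 13.10 and 13.07 in control arrays. The groups were again apart, with a difference of -0.28 ± 0.06 (SE), and the second probe set gave -0.47. TOMM70, the receptor for carrier precursors bound to cytosolic chaperones, was not called: it averaged 10.60 ± 0.11 in mimic and 10.70 ± 0.02 in control arrays (SD, n = 3 each), and its second probe set had the other sign, at 0.12. TOMM34, a cytosolic cofactor that binds precursors, differed by -0.02, and TOMM40L, a relative of the pore gene, by -0.17 without a call. The small subunits TOMM6 and TOMM7 were matched only by probe sets annotated to a second gene as well, so no gene is read there. The probe sets annotated to TOMM6 with PRICKLE4 gave -0.14, which was not called, and -0.24, which was called; the one annotated to TOMM7 with C4orf46 gave -0.14 and was not called.

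The outer membrane sorting genes showed 0 calls among 4. SAMM50, which inserts barrel-shaped proteins into the outer membrane, averaged 10.81 ± 0.05 in mimic and 10.98 ± 0.05 in control arrays (SD, n = 3 each), a difference of -0.17 ± 0.06 (SE). All its mimic arrays lay below its control arrays, by 0.05. Its partners MTX1, MTX2 and MTX3 differed by -0.13, 0.10 and 0.13, and their groups overlapped.

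The intermembrane space held the gene that fell most. TIMM8B, a small TIM chaperone (11:112084800-112086756, GRCh38.p14), had values of 11.49, 11.58 and 11.48 in mimic arrays and 12.34, 12.40 and 12.29 in control arrays. The nearest arrays of the groups were 0.71 apart, and the difference was -0.83 ± 0.06 (SE), 1.77-fold lower in mimic cells. Its second probe set gave -0.53. TIMM8A, the X-linked relative of TIMM8B whose loss causes a deafness and dystonia syndrome, had 6.72, 6.80 and 6.99 in mimic arrays and 7.57, 7.49 and 7.24 in control arrays. The difference was -0.60 ± 0.10 (SE), at values below the array medians. Its other probe set, also below them, had 4.38, 4.34 and 4.31 in mimic arrays and 4.13, 4.12 and 4.15 in control arrays and was called higher. The fall of TIMM8A was thus seen on 1 of 2 probe sets.

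TIMM13, which forms a complex with TIMM8A, fell by 0.47, and TIMM9, which forms one with TIMM10, fell by 0.40. The second TIMM13 probe set, below the array medians, gave -0.09 and was not called. TIMM10 averaged 10.33 ± 0.08 in mimic and 10.42 ± 0.04 in control arrays (SD, n = 3 each) and was not called, nor was TIMM10B, at -0.17. Whether partners in 1 complex differ in their response was not tested. The receptor of the disulfide relay, CHCHD4, averaged 9.55 ± 0.13 in mimic and 9.96 ± 0.07 in control arrays (SD, n = 3 each) and fell by 0.41. GFER, the oxidase that recharges CHCHD4, rose: it had 8.72, 8.85 and 8.85 in mimic arrays and 8.56, 8.55 and 8.46 in control arrays, a difference of 0.28 ± 0.07 (SE). Its second probe set was not called (0.11), and its groups overlapped there. Over the 8 genes of this compartment, 5 fell, 1 rose and the median was -0.41.

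**Figure D2:**
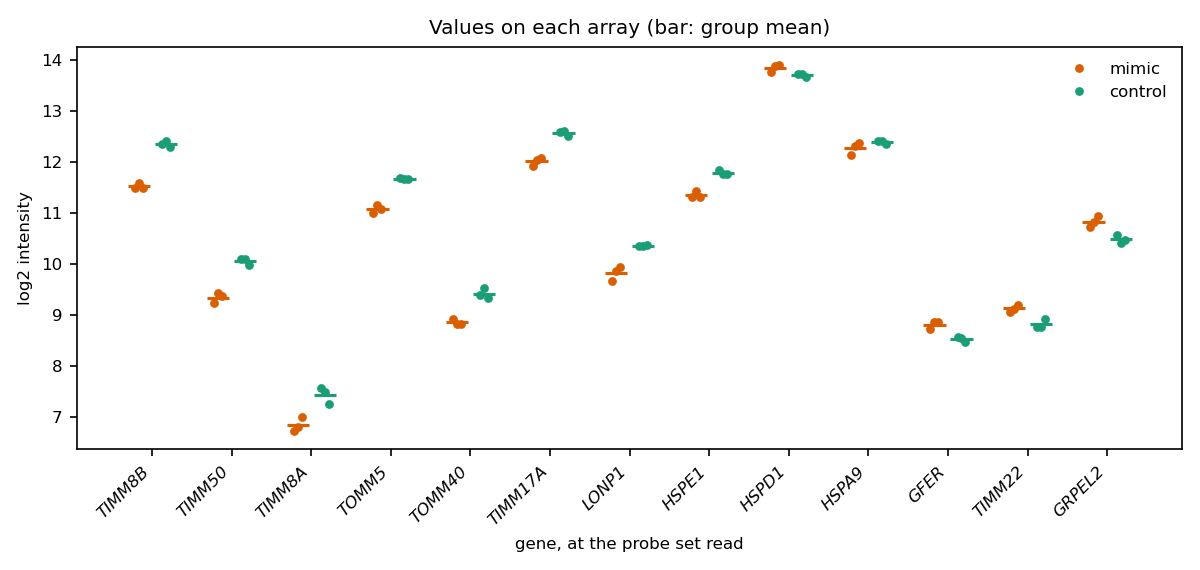
Log2 intensity (y axis) on each of the 6 arrays for 13 genes (x axis), mimic arrays in orange left of control arrays in green, with a bar at each group mean. The mimic points lie below the control points from TIMM8B to HSPE1, above them for HSPD1, GFER, TIMM22 and GRPEL2, and overlap them for HSPA9.

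At the inner membrane, several subunits of the TIM23 complex fell and the channel of the TIM22 complex rose. TIMM50, the receptor of the TIM23 complex, had 9.22, 9.42 and 9.37 in mimic arrays and 10.09, 10.09 and 9.97 in control arrays. It fell by 0.71 ± 0.07 (SE), or 1.64-fold, and its second probe set, below the array medians, gave -0.23. TIMM17A, a core subunit beside the channel, had 11.92, 12.03 and 12.08 in mimic arrays and 12.59, 12.60 and 12.50 in control arrays. It fell by 0.55 ± 0.07 (SE) and by 0.41 at a second probe set, while its remaining probe sets, at -0.25 and 0.01, lay below the array medians and were not called. TIMM17B, the alternative form of that subunit, fell by 0.26, and its second probe set had the other sign (0.19, not called). TIMM21, which links the complex to TOM and to the respiratory chain, fell by 0.42 and by 0.48 on its probe sets.

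TIMM23, the channel itself, could not be read well. Its single probe set annotated to that gene alone had 6.89, 6.84 and 6.70 in mimic arrays and 6.77, 6.80 and 6.74 in control arrays, below the array medians, with a difference of 0.04 ± 0.07 (SE). A further 3 probe sets, above the array medians, are annotated to TIMM23 together with its near-copy TIMM23B. All 3 were called lower, at -0.44, -0.50 and -0.51, and the last of these had 11.07, 11.19 and 11.15 in mimic arrays and 11.64, 11.74 and 11.57 in control arrays. These signals cannot be divided between the copies. The probe set of TIMM23B alone averaged 8.90 ± 0.16 in mimic and 9.24 ± 0.04 in control arrays (SD, n = 3 each) and fell by 0.35.

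TIMM22, the channel for carrier proteins (17:997129-1003671, GRCh38.p14), had 9.06, 9.12 and 9.19 in mimic arrays and 8.75, 8.76 and 8.92 in control arrays. It rose by 0.31 ± 0.07 (SE), 1.24-fold, and its other probe sets rose by 0.25 and 0.21, so all 3 were called in the same direction. All 3 carry suffixes (s_at or x_at) of probe sets that can bind more than 1 transcript. Among the 6 inner membrane genes, 4 fell, 1 rose and the median was -0.34.

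Of the 6 genes of the motor that pulls precursors into the matrix, 1 fell, 1 rose and the median difference was -0.07. These counts are near the shares over all genes (16.3% fell and 14.1% rose), so nothing about the motor is read from them. HSPA9, its mitochondrial HSP70, had 12.14, 12.31 and 12.37 in mimic arrays and 12.41, 12.40 and 12.34 in control arrays, and the groups overlapped (difference -0.11 ± 0.07, SE). None of its 4 probe sets was called. TIMM44, which anchors HSP70 at the channel, differed by -0.14, and a second probe set was called lower at -0.20. The J-domain and J-like regulators of HSP70, DNAJC19 and PAM16, differed by 0.02 and -0.02, with overlapping groups.

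The nucleotide exchange factors of HSPA9 changed in opposite directions. GRPEL2 (5:149345499-149354583, GRCh38.p14) had 10.72, 10.82 and 10.93 in mimic arrays and 10.57, 10.41 and 10.47 in control arrays. It rose by 0.34 ± 0.07 (SE), the largest rise among the 38 genes, and by 0.46 at its second probe set. Its relative GRPEL1 averaged 10.18 ± 0.10 in mimic and 10.51 ± 0.03 in control arrays (SD, n = 3 each) and fell by 0.33; the second GRPEL1 probe set, at -0.17, was not called. Whether the differences of these genes differ from each other was not tested, since the pair was singled out for them.

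HSPD1 and HSPE1, which encode the barrel and the lid of the matrix folding chamber, lie head to head on chromosome 2. The HSPE1 start and the first annotated HSPD1 start are 105 bases apart. HSPE1 (2:197500379-197503449, GRCh38.p14) had 11.30, 11.43 and 11.31 in mimic arrays and 11.84, 11.75 and 11.76 in control arrays, and fell by 0.44 ± 0.06 (SE), or 1.35-fold. HSPD1 (2:197486584-197500274) had 13.76, 13.88 and 13.89 in mimic arrays and 13.71, 13.71 and 13.67 in control arrays. Its difference of 0.14 ± 0.06 (SE) was not called, although its mimic arrays lay above its control arrays by 0.05. Without mimic replicate 1 it was called higher, at 0.18. A second HSPD1 probe set gave 0.16, without a call. One below the array medians had 5.11, 5.15 and 5.46 in mimic arrays and 6.37, 6.28 and 6.16 in control arrays and was called lower at -1.03; the other HSPD1 probe sets were not called. The highest value of any probe set was 14.90 to 14.95 on the arrays, against which HSPD1 lay near the top of the scale. HSPE1 was read on a single probe set with the suffix s_at.

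The start regions of this gene pair are shown because the genes start close together and their differences had opposite signs. They are RefSeq windows of 300 bases on GRCh38.p14, from 250 bases before to 50 after an annotated start, printed along the gene's strand. The HSPE1 window is chr2:197500129-197500428 on the plus strand, and 204 of its bases also lie in the window of the first HSPD1 start. The HSPD1 window printed is that of its second annotated start, chr2:197499791-197500090 on the minus strand. That start is not the one 105 bases from the HSPE1 start. Capitals here and below mark letters found by a search on both strands; the GC box is spelled GGGCGG, and the CCAAT box is spelled as its name. The E-box of MYC and its relatives is CACGTG. The motif of ETS factors such as GABPA is CCGGAAG. The NRF1 letters, a part of the motif of that factor, are GCATGCGC. The heat shock pair of units is GAANNTTC. None of these was required to stand apart from another.
HSPE1: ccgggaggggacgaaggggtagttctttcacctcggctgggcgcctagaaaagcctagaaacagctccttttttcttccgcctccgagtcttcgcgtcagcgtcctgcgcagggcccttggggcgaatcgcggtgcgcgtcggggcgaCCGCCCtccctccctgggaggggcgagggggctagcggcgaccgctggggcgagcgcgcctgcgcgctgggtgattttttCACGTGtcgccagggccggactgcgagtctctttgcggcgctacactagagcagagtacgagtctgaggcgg
HSPD1: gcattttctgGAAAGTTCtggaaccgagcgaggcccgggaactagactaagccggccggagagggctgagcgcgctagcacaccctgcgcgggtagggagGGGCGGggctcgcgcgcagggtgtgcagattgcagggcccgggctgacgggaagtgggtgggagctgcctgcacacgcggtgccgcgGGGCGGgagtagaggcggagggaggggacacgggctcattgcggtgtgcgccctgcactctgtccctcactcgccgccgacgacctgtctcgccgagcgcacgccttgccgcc

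The HSPE1 window held 1 GC box and 1 E-box. The first HSPD1 window (chr2:197500225-197500524, minus strand, not printed) held 1 GC box and 1 E-box too, the same sites, in the shared bases. The second HSPD1 window held 2 GC boxes and 1 heat shock pair. That heat shock pair was the only one among the windows of the import genes. It was found in 1 of their 41 windows (2.44%), and in 5.67% of the 21490 windows of genes with a probe set annotated to that gene alone. These letters describe the windows and do not show that a factor binds there.

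Among the proteases, LONP1 fell most. This ATP-dependent protease of the matrix (19:5691834-5720452, GRCh38.p14) had 9.67, 9.86 and 9.94 in mimic arrays and 10.35, 10.34 and 10.37 in control arrays. The control arrays were within 0.03 of each other and the difference was -0.53 ± 0.07 (SE), or 1.44-fold. CLPP, the peptidase subunit of the other matrix protease, had 10.26, 10.41 and 10.32 in mimic arrays and 10.50, 10.65 and 10.53 in control arrays. It fell by 0.23 ± 0.07 (SE), with only 0.09 between the nearest arrays of the groups, and was not called after leaving out mimic replicate 1 (-0.20), mimic replicate 3 (-0.23), control replicate 2 (-0.19) or control replicate 3 (-0.24). Its unfoldase CLPX differed by 0.03 and by 0.17 on its probe sets, without a call. Of the subunits of the peptidase that removes presequences, PMPCA averaged 9.95 ± 0.06 in mimic and 10.21 ± 0.01 in control arrays (SD, n = 3 each) and fell by 0.26, and PMPCB averaged 11.51 ± 0.13 in mimic and 11.51 ± 0.02 in control arrays and was not called. Of these 5 genes, 3 fell and 0 rose.

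**Figure D3:**
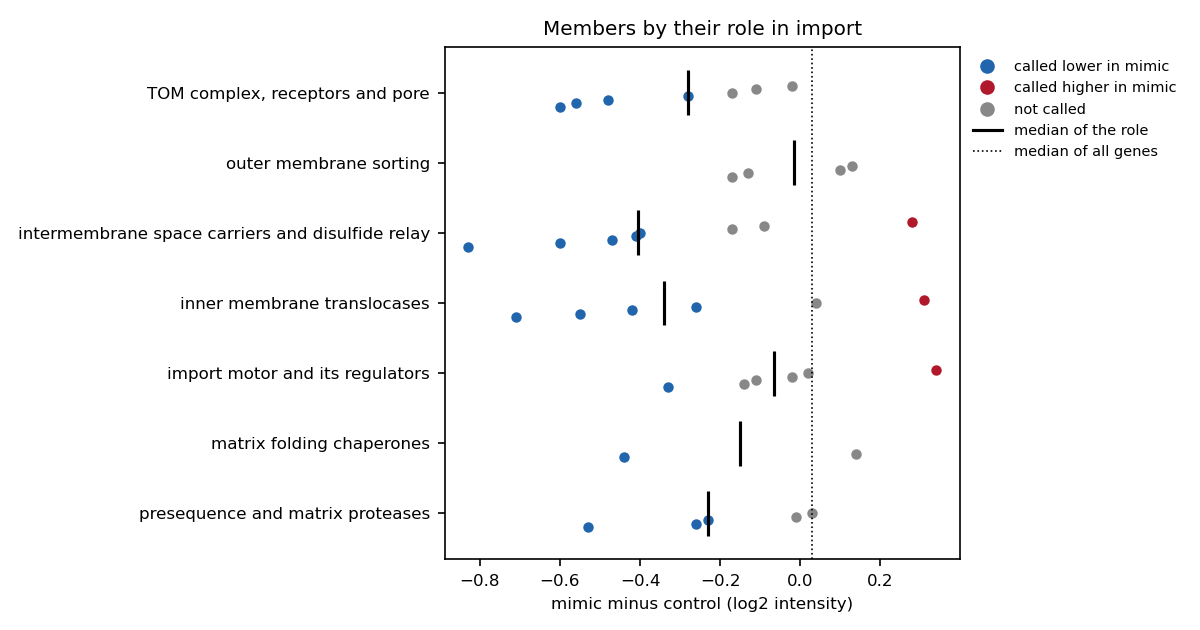
Difference in log2 intensity (x axis, mimic minus control) of the 38 genes grouped by role (y axis), with 1 point a gene coloured by call, a black bar at the median of each role and a dotted line at the median of all genes (0.03). The medians run from -0.41 in the intermembrane space to -0.01 for outer membrane sorting, and the 3 rises lie in 3 different roles.

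Start regions are given for 3 more genes: TIMM50, the largest fall among the genes with a window, GRPEL2, the largest rise, and LONP1, of whose start windows the upstream one was picked after its motif matches were seen. RefSeq windows were found for 36 of the 40 genes; TIMM8B, TOMM5, GRPEL1 and CLPP are only named. TIMM50 is shown at chr19:39480588-39480887 (plus strand), GRPEL2 at chr5:149345249-149345548 (plus strand) and LONP1 at chr19:5720403-5720702 (minus strand).
TIMM50: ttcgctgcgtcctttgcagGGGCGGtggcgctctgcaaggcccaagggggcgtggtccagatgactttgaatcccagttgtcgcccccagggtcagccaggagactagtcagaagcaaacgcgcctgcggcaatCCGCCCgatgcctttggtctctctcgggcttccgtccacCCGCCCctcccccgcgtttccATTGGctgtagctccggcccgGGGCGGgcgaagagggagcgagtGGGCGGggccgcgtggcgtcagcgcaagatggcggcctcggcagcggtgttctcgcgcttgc
GRPEL2: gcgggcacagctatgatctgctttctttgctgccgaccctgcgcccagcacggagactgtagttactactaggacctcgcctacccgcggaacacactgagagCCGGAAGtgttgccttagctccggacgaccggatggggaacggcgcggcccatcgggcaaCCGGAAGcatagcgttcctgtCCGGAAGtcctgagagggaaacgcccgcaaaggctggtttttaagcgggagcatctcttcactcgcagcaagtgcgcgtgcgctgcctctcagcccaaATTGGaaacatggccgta
LONP1: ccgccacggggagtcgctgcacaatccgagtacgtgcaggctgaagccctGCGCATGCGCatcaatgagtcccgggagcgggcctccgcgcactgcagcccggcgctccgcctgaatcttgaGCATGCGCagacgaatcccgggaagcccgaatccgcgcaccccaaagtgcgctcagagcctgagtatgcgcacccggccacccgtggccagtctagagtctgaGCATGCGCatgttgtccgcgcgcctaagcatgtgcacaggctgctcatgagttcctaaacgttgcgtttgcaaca

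The TIMM50 window held 5 GC boxes and 1 CCAAT box. That of GRPEL2 held 3 ETS motifs and 1 CCAAT box, with no GC box. The LONP1 window printed held 4 NRF1 matches over both strands, of which 1 pair overlaps. The other LONP1 window (chr19:5720097-5720396, minus strand) held 0 NRF1 matches, 2 E-boxes, 1 ETS motif and 1 GC box. Over the 41 windows of the import genes, the ETS motif was present in 34.1%, the GC box in 70.7%, the E-box in 19.5%, the NRF1 letters in 14.6% and the CCAAT box in 31.7%. These windows belong to 36 genes, and those of HSPE1 and of the first HSPD1 start share 204 bases. The GC box and E-box in the shared bases were counted in both, and only 8 windows held an E-box. The same shares were taken over the windows of all genes with a probe set annotated to that gene alone. They were 12.9% for the ETS motif, 56.7% for the GC box, 8.36% for the E-box, 3.72% for the NRF1 letters and 34.5% for the CCAAT box. The sets differ, since the 41 windows include those of TOMM6 and TOMM7, which have no such probe set. The ETS motif stood in windows of 14 import genes. Of these, TOMM20, TOMM22, TIMM13 and LONP1 fell and GRPEL2 rose. Most were not called: TOMM34, TOMM70, TIMM10, TIMM10B, TIMM23, MTX2, MTX3 and PMPCB. TOMM6, the remaining gene, was not read.

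The probe sets of a gene did not always give 1 answer. Of the 80 probe sets, 32 were called lower and 7 (8.75%) higher, while 13.1% of all probe sets were called lower and 11.6% higher. Among 25 genes read on several probe sets of their own, 17 had the same outcome on all of them. Of these, TIMM8B, TIMM50, TOMM5, TOMM22, TIMM21 and TOMM20 were called lower throughout, and GRPEL2 and TIMM22 higher. The rest of the 17 agreed only in not being called. GFER, GRPEL1, TIMM13, TIMM17A and TIMM17B were called on the probe set read but not on all of their others. TIMM8A alone had calls in both directions. For HSPD1 and TIMM44 the probe set read was not called while another was.

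**Figure D4:**
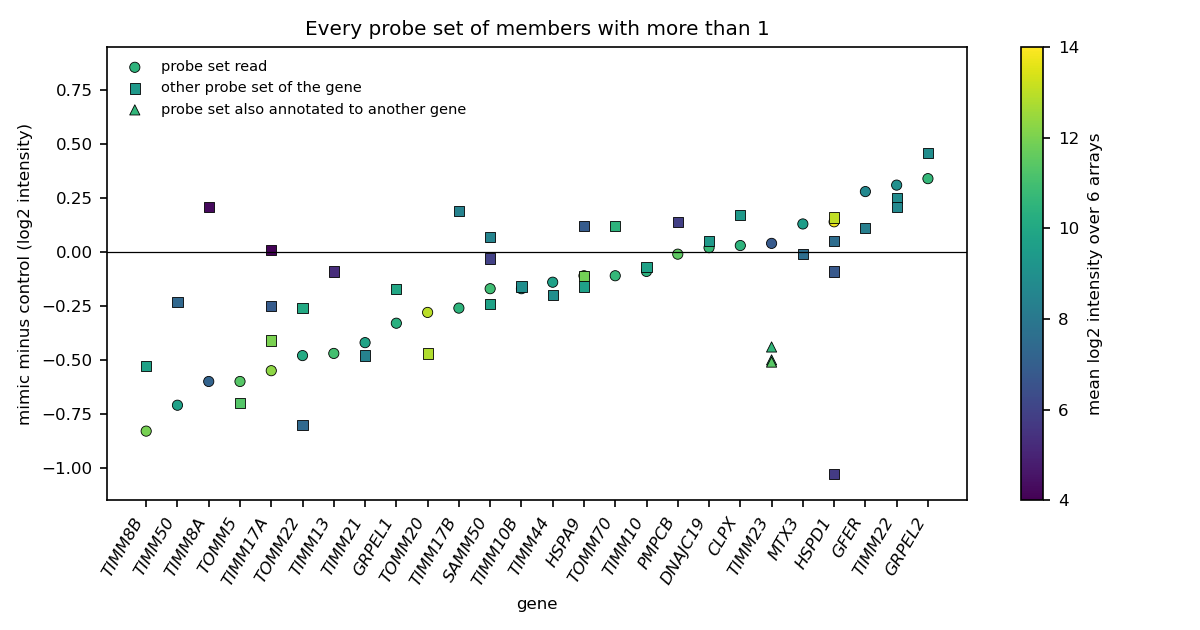
Difference in log2 intensity (y axis, mimic minus control) of every probe set of genes that have several (x axis): circles are the probe sets read, squares other probe sets of the gene and triangles those annotated to another gene too, coloured by mean log2 intensity over the 6 arrays. The 3 triangles of TIMM23 lie from -0.51 to -0.44 beside its circle at 0.04, and 1 square of HSPD1 lies at -1.03.

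Further import genes that were not in the list of 40 were counted from a list drawn up by function. Like the 40 genes, the lists from here on were chosen with earlier results of these data known. Over all genes, 16.3% fell and 14.1% rose, the shares to set beside each count. Of 15 measured, 6 fell, 2 rose and the median difference was -0.16. IMMP1L, a subunit of the inner membrane peptidase, averaged 8.92 ± 0.16 in mimic and 9.67 ± 0.03 in control arrays (SD, n = 3 each) and fell by 0.75, on both its probe sets. DNAJC15, a relative of DNAJC19, rose by 0.60, on 2 of its 3 probe sets, and AIFM1, which anchors CHCHD4 at the inner membrane, fell by 0.36. Of 15 other mitochondrial chaperone, prohibitin and protease genes, 7 fell and 2 rose, with a median of -0.18. TRAP1, the HSP90 of mitochondria, averaged 10.06 ± 0.02 in mimic and 10.79 ± 0.03 in control arrays (SD, n = 3 each) and fell by 0.73, on 1 of its 2 probe sets; PHB1 fell by 0.54 and STOML2, a scaffold protein of the inner membrane, by 0.46. Of 8 genes of the complex that shapes the cristae and its partners, 5 fell and 1 rose, with a median of -0.25. APOOL rose by 0.62, on 3 of its 4 probe sets, while APOO fell by 0.44 and DNAJC11 by 0.37.

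Of 13 measured genes that regulate mitochondrial programmes, 6 fell and 2 rose, with a median difference of -0.19. PPARGC1A, a co-activator of mitochondrial biogenesis, averaged 6.76 ± 0.09 in mimic and 8.25 ± 0.10 in control arrays (SD, n = 3 each), 2.82-fold lower in mimic cells, where it lay below the array medians; 1 of its 2 probe sets was called. MYC, a growth regulator that also acts on nuclear genes for mitochondria, averaged 10.92 ± 0.06 in mimic and 12.33 ± 0.11 in control arrays (SD, n = 3 each) and fell by 1.41. TFB1M, a methyltransferase of mitochondrial ribosomal RNA, fell by 0.49, on 2 of its 4 probe sets. Of the other factors named for the motifs above, NRF1 (0.12 ± 0.09, SE) and GABPA (0.03 ± 0.06, SE) were not called.

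Of 9 genes of the mitochondrial stress response, 3 fell and 2 rose, with a median of 0.08. ATF5, a factor of the mitochondrial unfolded protein response, averaged 8.35 ± 0.08 in mimic and 9.08 ± 0.08 in control arrays (SD, n = 3 each) and fell by 0.72, on 2 of its 4 probe sets. DDIT3, a factor induced by stress in the endoplasmic reticulum and elsewhere, rose by 0.68 and ATF4, the factor of the integrated stress response, by 0.30. Of 9 measured cytosolic chaperone genes that hand precursors to TOM, 3 fell and 3 rose, with a median of 0.06. DNAJB6, a J-domain co-chaperone, fell by 1.32. HSPH1 (0.70) and HSP90AB1 (0.31), of the HSP70-like and HSP90 families, rose, each on all 3 probe sets.

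Other programmes of the organelle are given side by side, without a test of the difference. Of 75 mitochondrial ribosomal protein genes, 41 fell and 2 rose, with a median difference of -0.25. Of 32 complex I subunit genes, 16 fell and 2 rose, with a median of -0.21. Beside these stand 18 falls, 3 rises and a median of -0.17 over the 38 import genes. Of all genes on the array, 16.3% fell and 14.1% rose, with a median of 0.03.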

How the data were processed

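RNA of MCF10A cells was measured on 6 single-colour Affymetrix arrays, 3 mimic and 3 control. The authors deposited log2 intensities per probe set made with RMA, per the submitters' processing notes, whose settings were not used here. That they are log2 follows from their range. RMA aligns the arrays' distributions and compresses small differences at low signal. On arrays, differences can also be compressed at high signal. The number of arrays limits the precision, and no detection calls were used.

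The 62 control probe sets were left out, leaving 54613. By the platform's annotation table, 41091 probe sets carried 1 symbol, 1801 several and 11721 none. All 38 measured import genes matched RefSeq by Entrez identifier. Mimic was compared with control by limma 3.58.1 (lmFit, eBayes) in R 4.3.3 across all probe sets, with Benjamini-Hochberg adjustment and a threshold of 0.05, and called means past it. The fit was tested on simulated data. The genes and lists were chosen with earlier results of these data known. Named with every array are the 6 largest called falls, up to 6 called rises and 8 fixed genes; of the other lists, up to 3 called genes each. Same-numbered arrays correlated at -0.107, 0.084 and 0.082 in their deviations, so the numbers were not taken as pairs. Alternatives were a filter on dim probe sets, other normalizations, variance models, array weights, a replicate block, each array left out, other readings of a gene and a stricter threshold. Tables were made with Python 3.11.15.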

Additional observations from a re-analysis of the deposited data

How the results depend on the processing

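The median difference of the 38 import genes lay between -0.20 and -0.13 under the alternatives run, and between -0.20 and -0.15 without any 1 array. The count of falls ran from 16 to 19, apart from 12 where only probe sets without the suffix s_at or x_at were read, which leaves 31 of the genes; there 1 gene rose, GRPEL2. Rises numbered 5 after quantile normalization again and 5 with array weights, against 3. With array weights 9576 of all probe sets were called higher, and at an adjusted p under 0.01, by construction fewer, 3828; the cause of the first was not tested. Without 1 array, 4451 to 6700 probe sets were called higher and 5805 to 7241 lower. With the replicate block, 18 import genes fell and 3 rose, and the block changed no other call among the genes given array by array (same-numbered arrays did not deviate together). For the 16 genes given array by array, 233 values were recomputed, and 220 kept direction and call. HSPD1 turned to -0.15 with its probe sets averaged, and was called higher after quantile normalization (0.18), with trend and robust variances (0.14), with array weights (0.17) and without mimic replicate 1 (0.18). CLPP lost its call under 6 alternatives, and TIMM17A (-0.25) and GFER (0.11) lost theirs on probe sets without those suffixes.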
